A study of Mus musculus with 6 samples.

Results

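Peaks of histone marks were examined at 57 genes that encode core proteins of the spliceosome and splicing factors. These are the protein-coding genes on chromosomes 1 to 19 in the RefSeq annotation of mm10 whose symbols start with Snrp (Snrpn left out), Sf3a, Sf3b, Srsf or Prpf, or with Lsm followed by a number, and they were taken from 20665 protein-coding genes on those chromosomes. The choice was by symbol, though earlier results of these data were known. The spliceosome removes introns from pre-mRNA. It is built from small nuclear ribonucleoproteins (snRNPs), each an RNA that carries a ring of Sm or Lsm proteins and particle-specific proteins, and SR proteins help it to recognise exons. Most of these genes are used in every cell type and have CpG-rich promoters, and H3K4me3 marks active promoters of this kind, whereas H3K9me2 is a repressive mark.

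The data were 6 peak lists from 6 CUT&RUN libraries of gastrocnemius muscle from 4-week-old male C57BL/6 mice. In this assay an antibody-tethered nuclease releases the DNA round a marked nucleosome. Control mice (Ctrl) were Phf2 flox/flox;Acta1 Cre-, and conditional knockout mice (CKO) were Phf2 flox/flox;Acta1 Cre+, so all mice carried floxed alleles of Phf2, the gene of a PHD-finger protein described as an H3K9me2 demethylase. H3K4me3 was mapped in Ctrl alone, in 1 library. Its title says wild type while its genotype label is Ctrl, so floxed alleles in that library rest on the label alone. It was treated as Ctrl. H3K9me2 was mapped in 1 library per genotype, and inputs numbered 2 for Ctrl and 1 for CKO. The Acta1 promoter drives Cre in skeletal muscle fibres, and whole muscle also holds other cell types. With 1 H3K9me2 library per genotype no test between genotypes was possible, and values are set side by side.

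As a measure of depth, the background coverage of the genome recovered from the peak statistics was 0.482 fragments per base for H3K4me3, 0.391 and 0.544 for H3K9me2 in Ctrl and CKO, and 0.292 to 0.371 for the inputs. Median summits held 53 fragments in the H3K4me3 list and 6 to 9 in the other lists. Of 12 skeletal muscle marker genes, 8 had an H3K4me3 peak, and Acta1, Ckm, Myh1 and Myh4 had none. Of 13 autosomal markers of other cell types, 6 had one.

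The promoters below carry the patterns described in the results. Each is the 250 bases before an annotated start, from RefSeq (GRCm38.p6, the assembly of mm10), read 5′ to 3′ on the gene's strand, with capitals at matches to the motifs GGGCGG (the GC box), CCGGAAG (an ETS-type motif) and CCAAT on either strand. Snrpb2 is shown because H3K9me2 was listed there in both genotypes, Lsm3 and Prpf4b because H3K9me2 and input peaks lay there together, and Lsm5 and Prpf6 because they had the highest and the lowest H3K4me3 fold.
Snrpb2, chr2:143062819-143063068, plus strand: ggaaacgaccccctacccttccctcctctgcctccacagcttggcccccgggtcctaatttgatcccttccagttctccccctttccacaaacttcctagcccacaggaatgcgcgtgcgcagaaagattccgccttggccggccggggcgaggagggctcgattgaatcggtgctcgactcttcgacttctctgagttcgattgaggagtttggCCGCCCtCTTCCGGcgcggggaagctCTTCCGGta
Lsm3, chr6:91515785-91516034, plus strand: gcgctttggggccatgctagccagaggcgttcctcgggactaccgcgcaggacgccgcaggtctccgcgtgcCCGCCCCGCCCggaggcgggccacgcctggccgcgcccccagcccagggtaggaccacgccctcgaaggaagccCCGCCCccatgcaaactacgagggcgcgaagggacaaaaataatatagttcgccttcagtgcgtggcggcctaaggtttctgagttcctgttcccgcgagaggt
Prpf4b, chr13:34875279-34875528, plus strand: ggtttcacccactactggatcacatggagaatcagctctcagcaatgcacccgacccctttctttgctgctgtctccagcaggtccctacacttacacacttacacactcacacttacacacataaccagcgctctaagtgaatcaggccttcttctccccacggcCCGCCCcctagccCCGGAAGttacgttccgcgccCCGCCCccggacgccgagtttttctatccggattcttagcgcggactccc
Lsm5, chr6:56704700-56704949, minus strand: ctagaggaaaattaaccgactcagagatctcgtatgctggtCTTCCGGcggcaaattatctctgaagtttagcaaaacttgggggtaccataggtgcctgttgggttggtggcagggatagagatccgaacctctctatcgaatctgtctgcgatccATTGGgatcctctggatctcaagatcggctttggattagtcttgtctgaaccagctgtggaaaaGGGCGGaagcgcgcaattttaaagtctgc
Prpf6, chr2:181601069-181601318, plus strand: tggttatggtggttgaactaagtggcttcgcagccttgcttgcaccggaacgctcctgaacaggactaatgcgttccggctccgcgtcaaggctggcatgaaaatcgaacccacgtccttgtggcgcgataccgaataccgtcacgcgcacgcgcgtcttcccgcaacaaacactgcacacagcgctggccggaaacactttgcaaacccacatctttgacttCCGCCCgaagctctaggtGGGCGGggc
The Snrpb2 promoter holds 2 CCGGAAG matches, which begin 28 and 9 bases before the start, and 19 CpG dinucleotides. The Lsm3 promoter holds 3 GGGCGG matches, of which the first and the second share a base, and 27 CpG. Lsm5 holds 11 CpG and Prpf6 holds 24.

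H3K4me3 was listed at each of the 57 genes in Ctrl muscle, where 65.5% of all protein-coding genes on chromosomes 1 to 19 had a peak in the gene or within 2 kb of it. The highest peak of each gene had a median fold of 12.9 over local background, against 11.4 over the 13531 genes with a peak. The fold is the authors' own, the ratio of summit to local background with 1 added to each. It is thus below the plain ratio, most so where local background is low. Of the 57 genes, 39 lay above the median of all genes with a peak, 21 above its upper quartile of 14.2 and 4 below its lower quartile of 8.73. The range ran from 23.9 at Lsm5 to 4.60 at Prpf6. The summit of the highest peak lay within 500 bp of an annotated start at 41 of the 48 genes with a start in the RefSeq promoter table, and within 1 kb at all 48. It lay downstream of the start in 34 and upstream in 14. The genes not in that table included Lsm1, Lsm4, Lsm12, Prpf18, Sf3b4, Sf3b5, Snrpb and Snrpd1. The summits of the 9 genes without a start there lay 36 to 1139 bp from the nearer gene end.

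**Figure D1:**
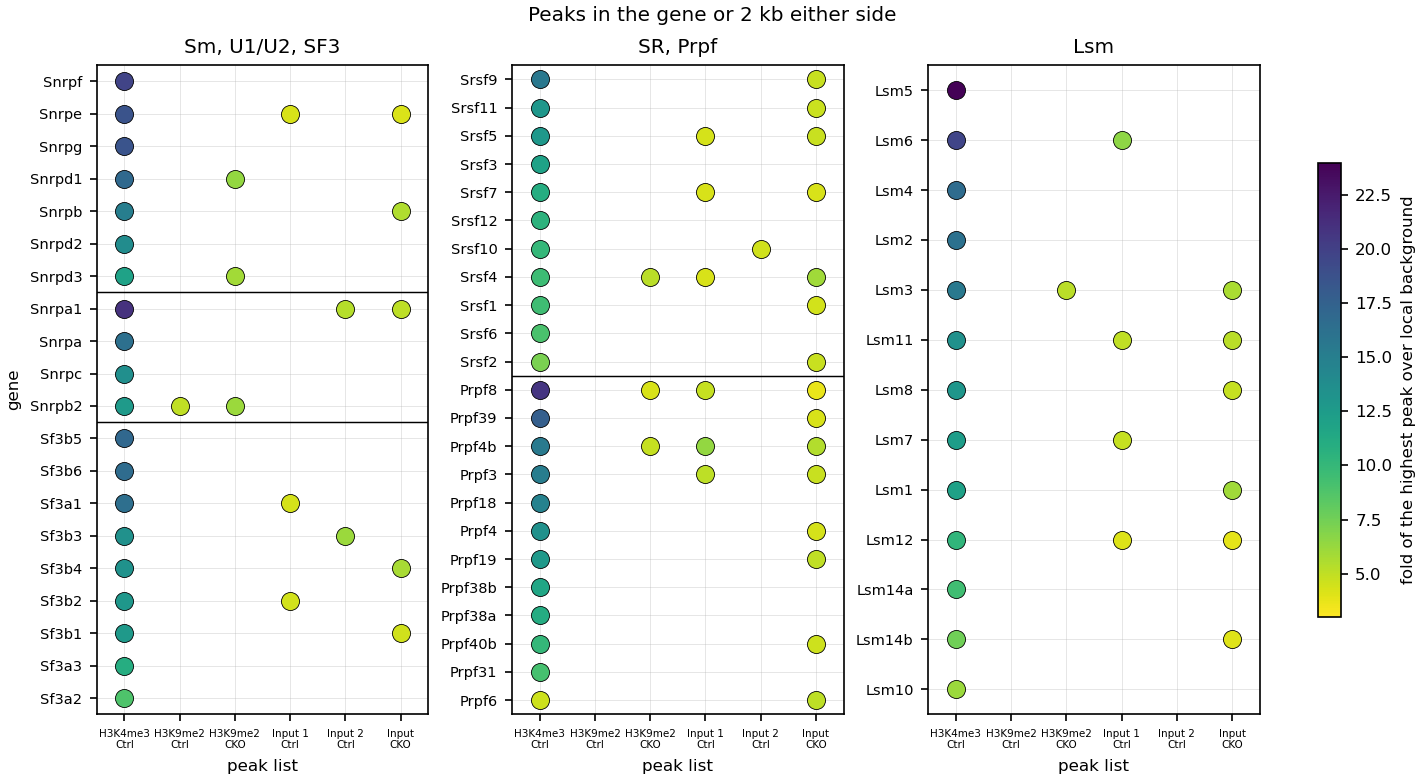
Genes (rows, by role) against the 6 peak lists (columns). A dot marks a peak in the gene or 2 kb either side, coloured by the fold of the highest such peak. Each of the 56 genes drawn has an H3K4me3 dot, while the H3K9me2 columns hold 1 (Ctrl) and 7 (CKO).

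The Sm proteins form the ring shared by most spliceosomal snRNPs, and all 7 of their genes lay above the median fold of genes with an H3K4me3 peak. Snrpf had a fold of 19.8, with 131 fragments at the summit, Snrpe 18.6 with 105 and Snrpg 18.5 with 70. Snrpd1 followed at 16.9 and Snrpb at 15.1. Snrpd2 (13.9) and Snrpd3 (11.9) were the lowest of the ring and had its widest peaks, 1315 and 1353 bp against 600 to 864 bp for the other 5. Of the 5 Sm genes with an annotated start, these 2 had their summit upstream of it, by 707 bp in Snrpd2 and 764 bp in Snrpd3. The annotated start of Snrpd2 lies inside the gene, and the summit there was 314 bp from the nearer gene end. The Snrpd3 summit was 103 bp from the start of the neighbouring gene Gucd1, so the peak may belong to either gene. Snrpd2 has the gene Qpctl as a neighbour within 2 kb.

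Proteins of single snRNPs had folds in a similar range. Snrpa1, a protein of the U2 snRNP, had a fold of 21.0 and 141 summit fragments. Snrpa and Snrpc, proteins of the U1 snRNP, had folds of 16.3 and 13.6. Snrpb2, the partner of Snrpa1 in the U2 snRNP, had 12.6, with 35 fragments. All 4 lay above the all-gene median fold, and their peaks were narrow, at 562 to 725 bp where the median of all genes was 831 bp.

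The SF3a and SF3b complexes hold the U2 snRNP at the branch site. Of their 9 genes, 7 lay above the all-gene median. Sf3b5 had a fold of 16.9, Sf3b6 16.7 and Sf3a1 16.4. Sf3b3 (13.5), Sf3b4 (13.3), Sf3b2 (12.9) and Sf3b1 (12.7), the gene of the largest SF3b subunit, lay close together. Sf3a3 (11.0) and Sf3a2 (8.84 on 100 fragments) were below the median.

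SR proteins bind exonic enhancers and recruit the splicing machinery. Their 11 genes had the lowest median fold of the 6 role groups, 10.5, and the widest peaks, with a median of 1061 bp. Only 4 of the 11 lay above the all-gene median fold, whereas 9 were wider than the all-gene median. Srsf9 had the highest fold (15.6), followed by Srsf11 and Srsf5 (12.8 each), Srsf3 (11.9), Srsf7 (11.0), Srsf12 (10.5), Srsf10 (10.001), Srsf4 (9.59), Srsf1 (9.52) and Srsf6 (9.05 on 71 fragments). Srsf2 had the lowest fold (7.26) and the widest peak of all 57 genes, at 1889 bp. Its summit held 86 fragments, equal to the median of the 57.

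A lower fold in the SR group did not go with few fragments. Their summits held a median of 93 fragments, against 105 for the Sm genes and 68 for all genes with a peak, and 10 of 11 exceeded that last value. Local background at the summit had a median of 6.96 in SR and 4.81 in Sm genes. Its median was 5.57 over the 57 genes and 4.45 over all genes with a peak, where the coverage of the library was 0.482. Fold is thus relative to the surroundings of each peak and not to that coverage. The part of local background in the lower fold of the SR group was not tested. Across the 57 genes fold and width had a Spearman correlation of -0.52, and across the 13531 genes it was -0.17. It was -0.438 over 66 other spliceosome genes, -0.699 over 35 proteasome genes and -0.322 over 77 mitochondrial ribosomal protein genes. All points come from 1 library, and both measures from the same peak.

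**Figure D2:**
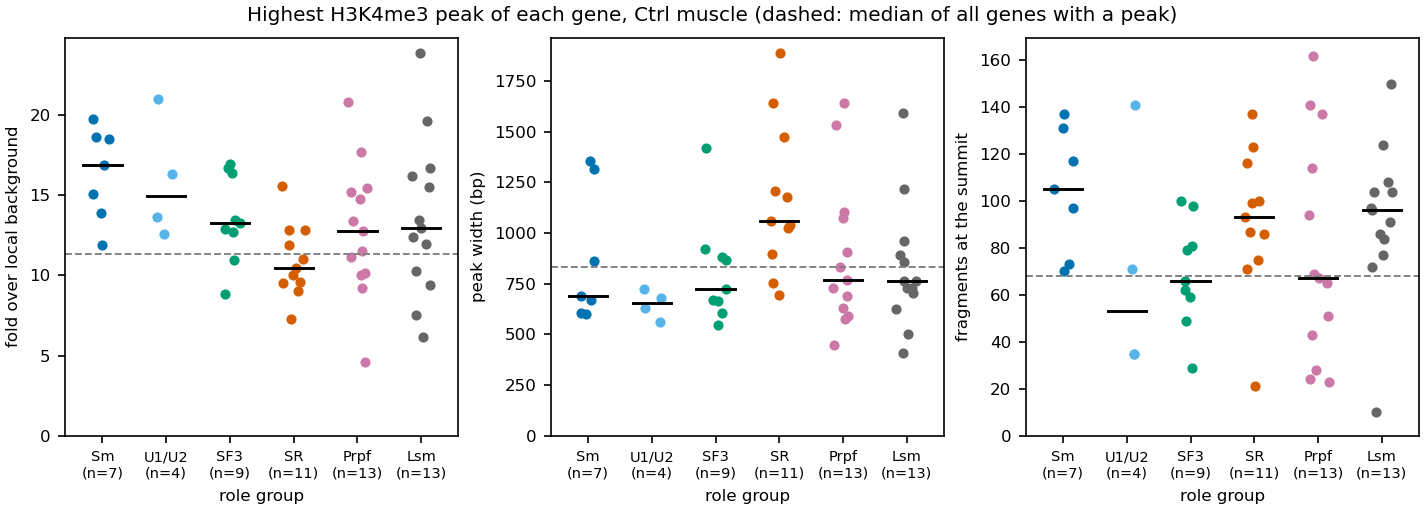
Fold, width (bp) and summit fragments of the highest H3K4me3 peak of each gene (points) by role group, with the group median (bar) and the median of all genes with a peak (dashed line). SR genes have a median fold of 10.5 and a median width of 1061 bp, Sm genes 16.9 and 687 bp.

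The Prpf genes encode factors of the U1 snRNP, of the U4/U6.U5 tri-snRNP and of the catalytic steps, and 8 of 13 lay above the all-gene median fold. Prpf8, the scaffold of the catalytic centre, had 20.8, with 114 fragments. Prpf39, which associates with the U1 snRNP, had 17.7. The kinase gene Prpf4b (15.4), the tri-snRNP genes Prpf3 (15.2) and Prpf4 (13.4), the second-step factor gene Prpf18 (14.8), the ubiquitin ligase gene Prpf19 (12.8) and Prpf38b (11.5) were also above it. Prpf38a (11.1), the U1-associated Prpf40b (10.1) and Prpf31 (9.20), a U4/U6 protein, were among those below. Prpf6, which bridges parts of the tri-snRNP, was the lowest, with a fold of 4.60 on 24 fragments. Prpf4b had the most fragments of the 57 genes, 162.

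Lsm proteins form rings related to the Sm ring. Those of Lsm2 to Lsm8 bind U6 RNA, and Lsm1 replaces Lsm8 in the ring of cytoplasmic mRNA decay. Lsm5 (23.9, 124 fragments) and Lsm6 (19.7, 150 fragments) led, followed by Lsm4 (16.7), Lsm2 (16.2), Lsm3 (15.5), Lsm8 (12.9), Lsm7 (12.4) and Lsm1 (12.0). The fold of each of these 8 genes lay above the all-gene median of 11.4. Of the genes outside both rings, Lsm11, a U7 snRNP protein of histone mRNA processing, had 13.5, and its partner Lsm10 had 6.15 on 10 fragments, the smallest count of the family. Lsm12 (10.2) and the mRNA-granule genes Lsm14a (9.41) and Lsm14b (7.53 on 91 fragments) lay below the median.

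A further H3K4me3 peak was listed at 5 of the 57 genes (8.77%), against 20.0% of all genes with a peak. At Prpf8 it lay 838 bp past the far end of the gene and 191 bp from the start of Rilp (fold 11.5). At Sf3b2 it lay 209 bp from the start of Pacs1 (8.30). Srsf11 had one peak at each of 2 annotated starts, and the one at the internal start was higher (12.8 against 8.07). At Prpf4 a small peak (4.53) lay 816 bp upstream of the start. The peak in the body of Srsf4 had a fold of 4.05 on 5 fragments. A neighbouring protein-coding gene lay within 2 kb of 29 of the 57 genes (50.9%), against 38.3% of all genes. Peaks in the window thus need not be those of the splicing gene. The 57 genes had a median length of 11.9 kb, against 17.5 kb for all genes. The part of length in the share with a further peak was not tested.

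**Figure D3:**
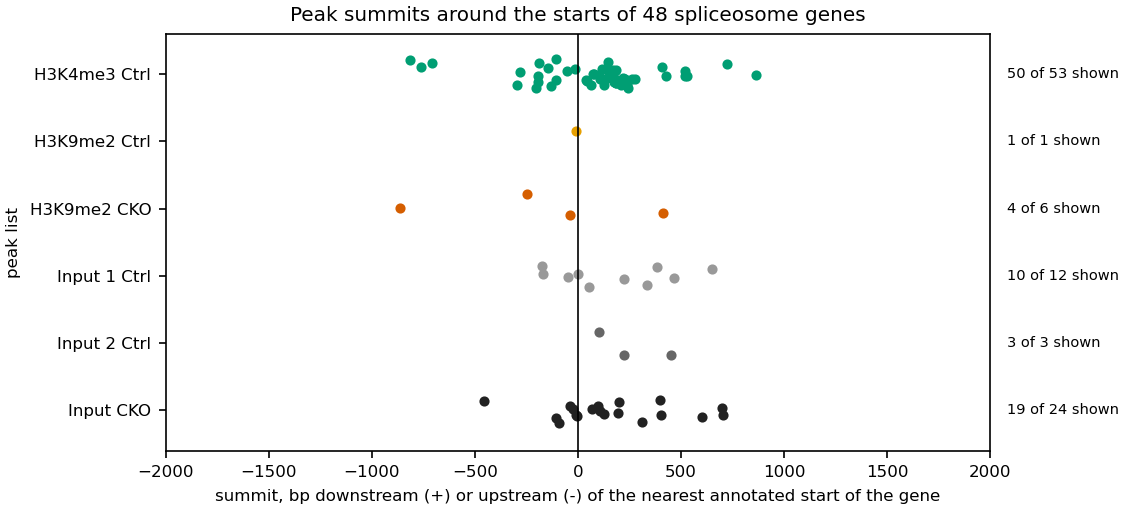
Distance in bp of each peak summit from the nearest annotated start of its gene (x axis) for the 6 lists (rows), over the 48 genes with a start in the RefSeq table. Of the H3K4me3 summits 42 of 53 lie within 500 bp and 50 within 1 kb, and of the CKO H3K9me2 summits 3 of 6 and 4.

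Few of these genes had a listed H3K9me2 peak in either genotype, with shares near those of all genes. A peak was listed at 2 of 57 genes in Ctrl (3.51%), Snrpb2 among them, where 5.38% of all protein-coding genes had one. In CKO it was listed at 7 (12.3%), namely Snrpb2, Snrpd1, Snrpd3, Lsm3, Prpf4b, Prpf8 and Srsf4, where 16% of all genes had one. Among genes with an H3K4me3 peak the shares were 6.4% in Ctrl and 19% in CKO. The share of splicing genes was thus near the background in both lists and below it in each. The part of the shorter median length of the 57 genes was not tested. The higher count in CKO went with a longer CKO list over all genes. The coverage of the CKO library was 1.39 times that of the Ctrl library.

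**Figure D4:**
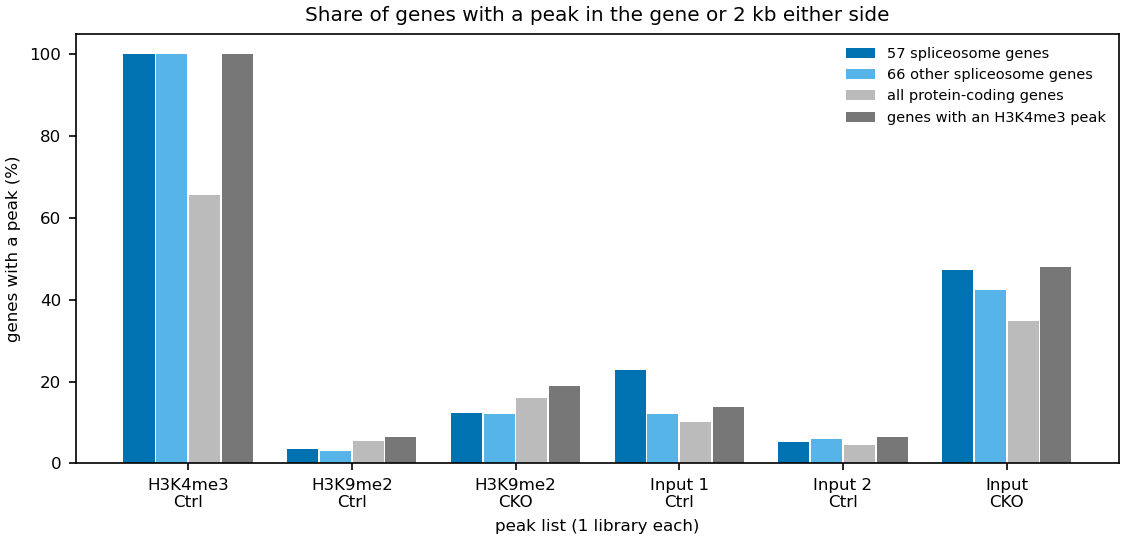
Percent of genes with a peak in the gene or 2 kb either side (y axis) in each of the 6 lists, for the 57 genes, 66 further spliceosome genes, all protein-coding genes and those with an H3K4me3 peak. For CKO H3K9me2 the 57 genes stand at 12.3% and all genes at 16%, and for Ctrl input 1 at 22.8% and 10.1%.

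Snrpb2 (chromosome 2, 143063069 to 143072052) was the one gene of the 57 with H3K9me2 in both lists, where 3.31% of all genes had both, and no input peak was listed there. The Ctrl peak spanned 143062922 to 143063403, with a fold of 5.03 on 6 summit fragments (exact 95% Poisson interval 2.20 to 13.1). The CKO peak spanned 143062856 to 143063283, with a fold of 6.14 on 9 fragments (4.12 to 17.1). Divided by the background coverage of its library, with nothing added, the summit stood at 15.3 in Ctrl and 16.6 in CKO. The counting intervals overlap widely. The summits lay 9 bp and 38 bp upstream of the start, within the promoter stretch printed above, and the H3K4me3 peak of Ctrl (143062791 to 143063515) contained both peaks. Intervals cover counting error only.

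Among the 6 genes listed in CKO but not in Ctrl, Snrpd1 and Snrpd3, both of the Sm ring, had the highest folds. The Snrpd1 peak (chromosome 18, 10617741 to 10618237) had a fold of 6.38 on 9 fragments (4.12 to 17.1) and lay inside its H3K4me3 peak. The Snrpd3 peak (chromosome 10, 75516991 to 75517736) had a fold of 5.90 on 10 fragments (4.80 to 18.4). Its summit was 862 bp upstream of Snrpd3 and 201 bp from the start of Gucd1. No input peak overlapped either one.

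Lsm3 and Prpf4b had H3K9me2 together with input, over the start of Prpf4b and upstream of that of Lsm3. Lsm3 has the gene Xpc as a neighbour within 2 kb. The Lsm3 peak (chromosome 6, 91515462 to 91515897) had a fold of 5.18 on 7 fragments (2.81 to 14.4), 247 bp upstream of the start. A CKO input peak (5.64 on 7 fragments) overlapped it, with its summit 458 bp upstream. The Prpf4b peak (chromosome 13, 34875516 to 34876008) had a fold of 4.82 on 7 fragments, and there the CKO input had 5.42 and Ctrl input 1 had 6.42. The input folds were the higher ones at both genes. Folds of separate libraries are each relative to their own background.

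The remaining CKO peaks lay away from the start of the splicing gene. At Prpf8 the CKO peak (fold 4.29 on 7 fragments) lay 193 bp from the start of Rilp, where Ctrl input 1 and the CKO input also had peaks. At Srsf4 it lay in the gene body (chromosome 4, 131896107 to 131896449, fold 5.18 on 7 fragments), 22078 bp from the nearest start, with no H3K4me3 and no overlapping input peak.

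**Figure D5:**
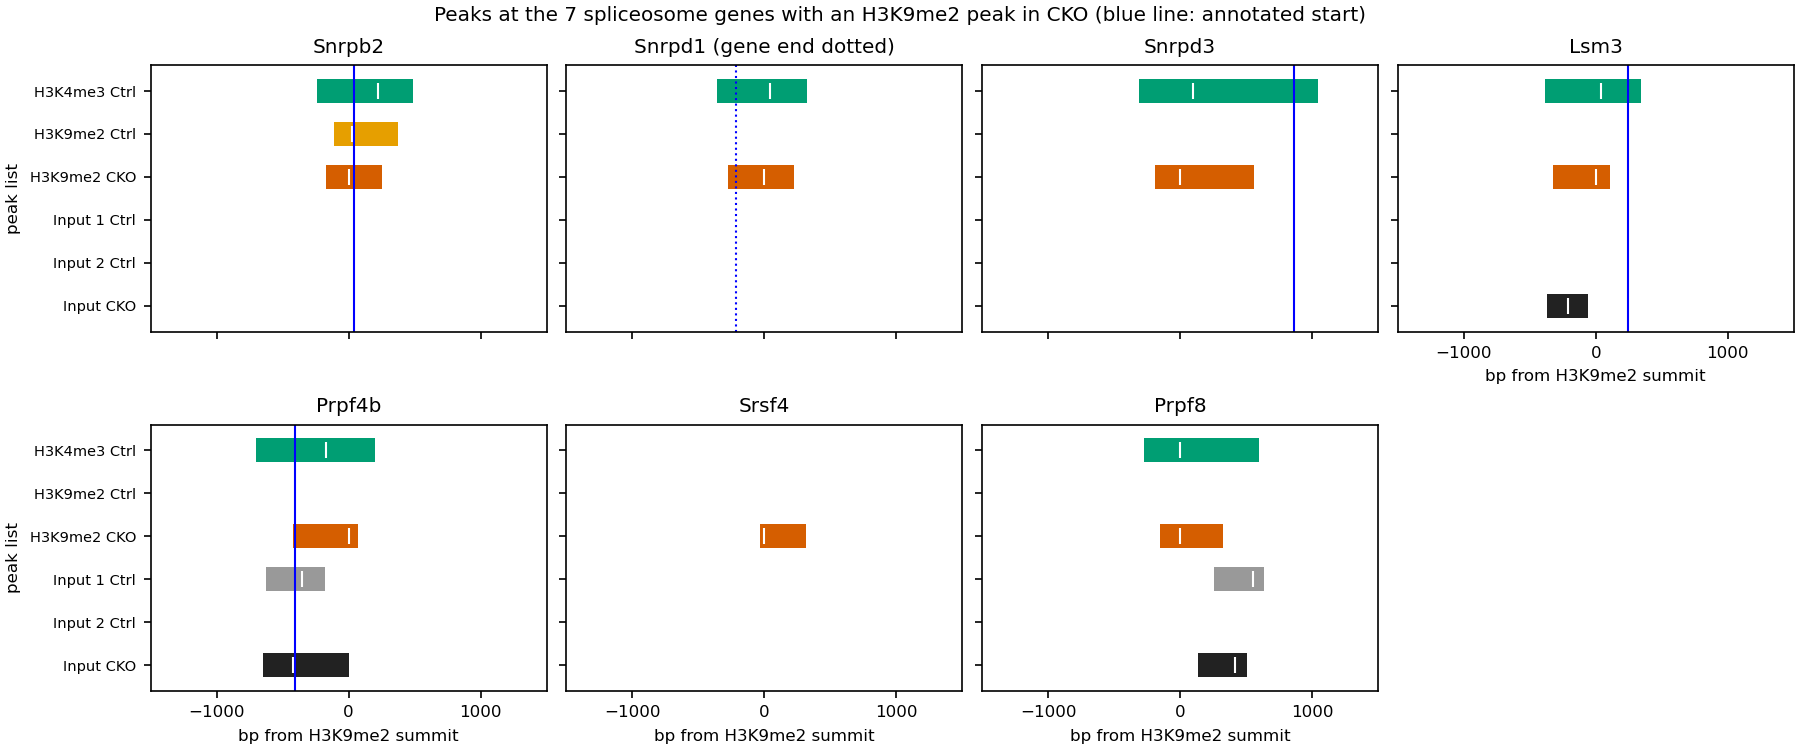
Peaks (bars, with the summit in white) of the 6 lists at the 7 genes with H3K9me2 in CKO, by distance in bp from the CKO H3K9me2 summit. Blue lines mark the annotated start, dotted where only the gene end is known. Only Snrpb2 has bars in both H3K9me2 rows, and Srsf4 has no H3K4me3 bar near its H3K9me2 peak.

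A gene missing from the Ctrl list may still carry the mark, and the part of depth was not tested. The CKO summits held 7 to 10 fragments. Scaled by the ratio of coverages they would be 5.03 to 7.19 fragments in the Ctrl library, where the listed summits begin at 4 and have a median of 6. After removal of H3K9me2 peaks that overlapped any input peak, 1 of 57 genes was left in Ctrl (Snrpb2) and 4 in CKO (Snrpb2, Snrpd1, Snrpd3 and Srsf4), against 3.26% and 9.82% of all genes. In CKO, H3K9me2 overlapped H3K4me3 of Ctrl at 6 of 57 genes, where this held for 9.18% of all genes and 14% of genes with an H3K4me3 peak.

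The CKO input list had a peak at 27 of 57 genes (47.4%), where 34.8% of all genes and 48.1% of genes with H3K4me3 had one. The share was near that of the genes with H3K4me3. An input peak on the H3K4me3 peak was listed at 24 of the 57, against 27.5% of all genes and 42% of those with H3K4me3. Of the 27 genes with a CKO input peak these were 88.9%, near the 87.2% among all genes with both peaks. Lsm1 had a fold of 6.01 and Srsf4 6.03, the highest of the family in that list. Lsm14b, Prpf4 and Prpf6 had CKO input peaks only away from H3K4me3.

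The 2 Ctrl inputs differed from each other at the splicing genes. Ctrl input 1 had a peak at 13 of 57 genes (22.8%), where 10.1% of all genes and 13.9% of genes with H3K4me3 had one. Ctrl input 2 had a peak at 3 (5.26%), where 4.56% and 6.36% had one. These were Sf3b3 (fold 6.19 on 7 fragments), Snrpa1 (5.31 on 7) and Srsf10 (4.52 on 5). No gene of the 57 was in both, and 1.35% of all genes were. The Ctrl input peak lay on the H3K4me3 peak at all 16 genes, that is at 13 of 57 for input 1 and 3 of 57 for input 2, against 7.4% and 3.53% of all genes. Among genes with H3K4me3 and the input peak, 81.4% and 84.8% had it there. At Prpf8 and Sf3b2 the H3K4me3 peak concerned was the one near the neighbouring gene. The input 1 summits lay 745 bp from the start of Rilp and 239 bp from that of Pacs1. Of the 13 genes of input 1, 9 also had a CKO input peak (69.2%), near the 68.2% among all genes with an input 1 peak, and 6.87% of all genes had both. They were Prpf3, Prpf4b, Prpf8, Srsf4, Srsf5, Srsf7, Snrpe, Lsm11 and Lsm12, and the other 4 were Sf3a1, Sf3b2, Lsm6 and Lsm7. The highest input 1 folds were 6.57 at Lsm6 and 6.42 at Prpf4b, on 8 fragments each. Prpf3 (5.11) and Lsm11 (4.99) followed on 6 fragments each, then Lsm7 (4.85 on 10), Prpf8 (4.83 on 8) and Sf3b2 (4.41 on 6). Srsf5 (4.38), Sf3a1 (4.33), Snrpe, Srsf4 and Srsf7 (4.28 each) and Lsm12 (4.14) had 5 fragments each.

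By the number of lists, 21 genes had H3K4me3 alone, 23 had peaks in 2 lists, 10 in 3 and 3 in 4 (36.8%, 40.4%, 17.5% and 5.26%). Over all genes with H3K4me3 the shares were 40.6%, 34.9%, 16.9% and 5.69%. The 3 were Prpf4b, Prpf8 and Srsf4, each with H3K4me3, CKO H3K9me2, Ctrl input 1 and CKO input. No gene of the 57 had peaks in 5 or 6 lists, and of the genes with H3K4me3 1.39% had 5 and 0.466% had 6.

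Other spliceosome genes were counted in the same way. Of 66 genes of the snRNPs, the Prp19 complex, the minor spliceosome, snRNP assembly and SR kinases, each had an H3K4me3 peak, with a median fold of 12.8. H3K9me2 was listed at 2 in Ctrl (3.03%, against 5.38% of all genes) and 8 in CKO (12.1%, against 16%). The 2 in Ctrl, Smn1 (3.59 on 4 fragments) and Gemin2 (4.70 on 6), encode subunits of the SMN complex that loads Sm rings onto RNA, and neither was listed in CKO, which held for 38.5% of all genes with a Ctrl peak. In CKO, Rnpc3, a gene of the minor spliceosome, had the highest fold (12.5 on 21 fragments), above each of the 57 genes. It was followed by Ppie (7.13), Gemin5 (6.48), the SR kinase gene Clk4 (5.75), Cwc22 and Tra2a (5.18 each), U2af2 (4.73) and Clk3 (4.06). The peaks of Gemin5, Tra2a, U2af2 and Clk3 overlapped an input peak. Input-free H3K9me2 was thus left in CKO at 4 of the 66 genes, against 9.82% of all genes. For comparison, 35 of 39 proteasome genes and 77 of 78 mitochondrial ribosomal protein genes had H3K4me3, with median folds of 13.8 and 13.5, and H3K9me2 in CKO was listed at 4 (10.3%) and 11 (14.1%) of them.

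Of 10 regulators of muscle splicing, 9 had H3K4me3 and the exception was Rbfox1. H3K9me2 was listed at 2 of the 10 in Ctrl (Rbfox1 and Celf2) and at 5 in CKO (Rbfox1, Celf2, Mbnl1, Ptbp1 and Rbm24), against 5.38% and 16% of all genes. Rbfox1 spans 1528 kb and Celf2 857 kb, where the longest of the 57 genes spans 56.7 kb. The part of gene length in these counts was not tested. The peaks of Rbfox1 and Celf2 in CKO had folds of 4.14 to 6.97 and 5.32 to 5.36. Ptbp1, which encodes a splicing repressor, had a CKO peak 387 bp from its start (4.77). Rbm24, a muscle RNA-binding protein gene, had one 52 bp from its start (4.82). The CKO peak of Mbnl1 (3.89) overlapped an input peak.

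Promoter sequence was not used in the choice of the genes, and 58 promoters of the 48 genes with an annotated start were examined. From 250 bases before to 50 after the start they held a median of 24.5 CpG, against 20 for promoters of genes with H3K4me3 and 14 for all. CCGGAAG on either strand was found at 19 of 48 genes (39.6%), against 18.9% of genes with H3K4me3 and 13.3% of all genes with a promoter in the table. By role it was found at 6 of 7 SF3, 4 of 11 SR, 4 of 11 Prpf, 2 of 5 Sm, 2 of 4 U1 or U2 and 1 of 10 Lsm genes. GGGCGG was found at 34 of 48 genes (70.8%), where 69.4% of genes with H3K4me3 and 50.3% of all genes held it. CCAAT was found at 20 (41.7%, against 42.5% and 42.3%) and TATAAA, the TATA box, at 4 (8.33%, against 8.74% and 15%). The palindromic NRF1 motif was found at 1 gene (2.08%, against 2.13% and 1.49%) and AAGATGGCG, a YY1-type motif, at 3 (6.25%, against 3.16% and 2.14%). A match is a description of letters and does not show binding of a factor.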

How the data were processed

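Peak lists of 6 CUT&RUN libraries from mouse gastrocnemius were used, 1 list per library. Per the submitters' processing notes, Bowtie2 aligned the reads to mm10 and MACS2 called the peaks. Not given in the sources used here are the versions, whether calling used a control, how input was made and how many animals a library holds. Each peak has the authors' fold (summit over local background, a ratio), and the deposited −log10 p and −log10 q values. The fold was read as a ratio with 1 added to the summit count and to the local background. The deposited score is −log10 q scaled to a whole number, and a summit offset is given too. No listed peak had a q above 0.05. Narrow peaks may miss broad H3K9me2 domains.

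Peaks on chromosomes 1 to 19 were kept. A peak counted for a gene if 1 bp or more lay in the gene or 2 kb either side. Genes and starts came from RefSeq tables of GRCm38.p6, which give no exons. Starts and promoters matched 48 of the 57 genes, and a distance is to the nearest annotated start. Summit fragments were solved from fold and p as whole Poisson counts, matched within 0.1% for 99.0% to 100.0% of peaks of a list, and the lowest local background of a list was taken as its coverage. An H3K9me2 peak overlapping a peak of any of the 3 inputs by 1 bp was counted as having input. On simulated peaks 410 of 410 genes with a peak, 291 of 291 overlaps and 1000 of 1000 fragment counts were recovered. The simulated fold and p values were made with the same formulas. The recovery thus checks the code and not the form of the deposited values. No test was made, since each mark and genotype had 1 library. Intervals of fragment counts are exact 95% Poisson and cover counting error alone.

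The genes and lists were chosen with earlier results of these data known. Each gene is named by role. Full values go to genes with H3K9me2 or a Ctrl input peak, the 6 highest and 6 lowest H3K4me3 folds and the genes in the most lists, and others are given in part. Values of 1 gene of the 57, to which this rule would give full values, are not reported here, though it is in all counts but those of the plot that names each gene. Alternatives were windows of 1 and 5 kb, q of 1e-05 or less, folds at or above the list median, summit position, overlap of 50% of the shorter peak, other input removal and shortened CKO lists. Scripts ran in Python 3.11.15 with scipy 1.17.1, pandas 2.3.3, numpy 2.4.6 and matplotlib 3.10.9.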

Additional observations from a re-analysis of the deposited data

How the results depend on the processing

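Of 68 alternative values for 11 results, 48 stayed near the value reported. Near means within 1.5 times the value or, for the median H3K4me3 fold, within 11.9 to 14.8. That range is a 95% interval over the 57 genes, with the folds of Srsf3 and Prpf18 as bounds. It treats genes of 1 library as separate draws and does not cover variation between libraries. H3K4me3 was listed at each of the 57 genes except with peaks at or above the median fold, which left 46, where 41.5% of all genes had such a peak. The other 20 moved. Shares in parentheses are those of all genes under the same setting. At q of 1e-05 or less, H3K9me2 was left at 0 genes in Ctrl (0.552%) and 3 in CKO (6.19%), input-free H3K9me2 at 0 in Ctrl (0.329%), CKO H3K9me2 on H3K4me3 at 3 (2.81%), and input at 1 for Ctrl input 1 (0.900%), 0 for Ctrl input 2 (0.368%), 0 for CKO (6.71%) and 0 for CKO on H3K4me3 (4.97%). With folds at or above the list median, H3K9me2 was at 1 gene in Ctrl (2.72%) and 3 in CKO (8.15%), and on H3K4me3 at 3 (3.27%). Ctrl input 1 was then at 4 (5.202%), the CKO input at 10 (19.4%) and on H3K4me3 at 8 (11.4%). Input-free H3K9me2 in Ctrl was at 2 genes with removal at 50% of the shorter peak (3.49%) and 2 with input of the same genotype alone (4.44%). Leaving out either Ctrl input left it at 1 in Ctrl and 4 in CKO. With the CKO H3K9me2 list shortened to 3595 peaks, as in Ctrl, the CKO counts of H3K9me2, of its input-free peaks and of those on H3K4me3 were 0 (4.62%), 0 (2.87%) and 0 (1.97%). With the CKO input list shortened to 2999 peaks, as in Ctrl input 1, its count was 3 (10.9%). These alternatives keep fewer peaks by construction, except the 2 ways of removing input, which keep more. Windows of 1 and 5 kb and the summit rule moved no count by over 1.5 times. At the 57 genes, depth limits each H3K9me2 and input peak, which rests on 4 to 10 fragments. No paired analysis was possible because each mark has 1 library per genotype.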
